A study of Mus musculus with 6 samples.

Results

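Mitochondrial and peroxisomal fatty acid oxidation was followed through 37 genes, chosen by symbol from the 48699 genes of the deposited expression table: 10 of the peroxisomal arm, 22 of the mitochondrial arm and 5 of fatty acid activation and carnitine uptake that were placed in neither arm. Liver RNA was sequenced in 3 libraries from double knockout mice, with a hepatocyte-specific Fxr-/- Shp-/- genotype (gene symbols Nr1h4 and Nr0b2), and in 3 libraries from Fxr fl/fl Shp fl/fl control mice, homozygous for the floxed alleles. The mice were male C57BL/6 adults aged 10 to 12 weeks, with an overnight fast of 8 to 10 hours, and the table's column names add chow. FXR is the bile acid receptor and SHP an orphan nuclear receptor that represses transcription, and the question for the module is how its transcripts differ when hepatocytes lack the pair. The sources used here do not give the Cre driver. By the stated genotype, cells other than hepatocytes would keep both genes, which was not tested. Expression is in FPKM, which scales fragments to transcript length and to the mapped fragments of the library, so that levels of different genes are compared per length.

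Fatty acids are activated to acyl-CoA, and long chains enter the mitochondrion as acylcarnitines, through carnitine palmitoyltransferases on either side of a carrier. In the matrix each turn of the cycle joins a dehydrogenase, a hydratase, a second dehydrogenase and a thiolase, and the first electrons pass through the electron transfer flavoproteins. In fasting liver much of the acetyl-CoA becomes ketone bodies. Peroxisomes shorten very long, branched and dicarboxylic chains with their own enzymes, and many genes of both organelles are induced by the fatty acid receptor PPARA.

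In each library between 16087 and 16698 genes had a value above 0, and the depth, read from the smallest steps of the values, was 13.2 to 14.1 fragments times 1e6 per library. Nr0b2 measured 0.216, 0.0734 and 0.293 FPKM in double knockout livers, against 14.7, 17.6 and 18.7 FPKM in controls, and Nr1h4 21.1, 15.5 and 22.04 FPKM in double knockout livers, against 59.8, 71.8 and 68.0 FPKM in controls. Both deleted genes were lower in every library labelled double knockout than in any control, and neither was at 0 in any of them. The double knockout mean was 0.0114 of the control mean for Nr0b2 and 0.294 of it for Nr1h4. The 8 hepatocyte markers were all abundant, none at 0, between 602 and 32919 FPKM on average. Control replicate 3 stood apart: its log2 values correlated with those of the other controls at 0.952 and 0.955, across genes, which are not independent replicates, while those of control replicates 1 and 2 correlated at 0.983. The summed level of 15 immediate-early genes, which respond to handling and stress, was 69.8 to 202 FPKM in double knockout livers, against 62.8, 83.2 and 854 FPKM in control replicates 1, 2 and 3. Of the 37 members, 26 were highest in control replicate 3 and 18 were lowest in double knockout replicate 2, and the part of these library differences in the results was not tested. The count of members below 0, the arm medians and the calls of members are also given without control replicate 3. Fold changes of most single members are given only with it. Without it some of them moved towards 0, such as that of Decr1, and others away, such as that of Pex11a.

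Acaa1b, a peroxisomal thiolase, fell 3.44-fold in the double knockout, and was the 1 member of 37 that passed the test, with 0 members higher. Most other members had fold changes below 0 that did not pass, among them the proliferation factor Pex11a, the carnitine transporter Slc22a5 and the dehydrogenase Acadm. The synthetase Acsl4 and the palmitoyltransferase Cpt1a lay in the other direction. Passing means an adjusted p under 0.05 in limma, in a fit to log2(FPKM + 1) over the 11810 genes whose mean reached 0.5 FPKM, in which 0.144% of the genes were called lower and 0.169% higher. All 37 members passed the filter on low values, with 27 fold changes below 0, against 50.8% of all tested genes, 10 above 0, against 49.2%, and a median log2 fold change (double knockout minus control) of -0.29, where the median of all tested genes was -0.01. At an unadjusted limma p under 0.05, 13 members were lower and 2 higher, against 7.98% and 6.97% of all tested genes. In 15 members every double knockout value lay below every control value, against 11.6% of all tested genes, and in 2 members, Acsl4 and Cpt1a, every double knockout value lay above, against 11.3%. The members share the 6 libraries and are not independent of each other, and in bulk tissue fewer cells of a type and less RNA per cell cannot be told apart. Fewer members were below 0 under other settings: with quantile normalization 21 members stayed below 0 (median -0.08), and without control replicate 3 the count was 23 (median -0.10).

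**Figure D1:**
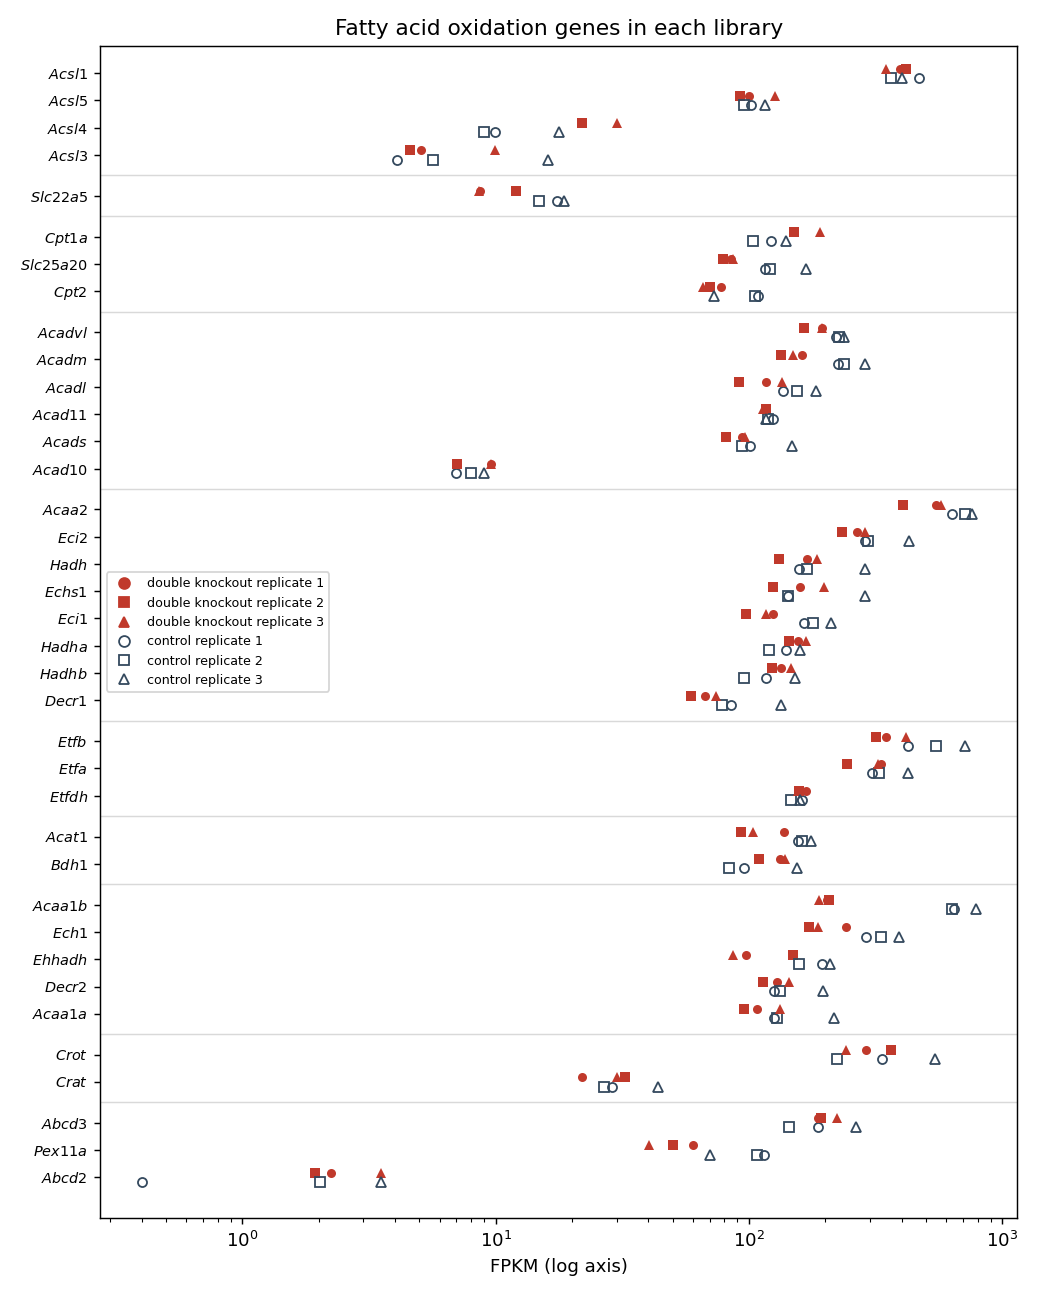
Expression of the 37 genes in each library, in FPKM on a log axis, with filled red symbols for double knockout and open dark symbols for control replicates 1 to 3, in blocks by role (activation, carnitine uptake, carnitine shuttle, acyl-CoA dehydrogenases, later steps of the mitochondrial cycle, electron transfer flavoproteins, ketone body enzymes, then peroxisomal enzymes, carnitine acyltransferases and membrane proteins). Acaa1b stands out, with all 3 double knockout values at or below 208 FPKM and all 3 control values at or above 635 FPKM.

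Levels spanned from 605 FPKM for Acaa2, the mitochondrial thiolase, to 2.27 FPKM for the peroxisomal transporter Abcd2, as means over the 6 libraries. The next most abundant members were Etfb (461 FPKM) and Acaa1b (445 FPKM). Together the 37 genes made up 0.816%, 0.828% and 0.821% of the summed FPKM in double knockout livers, against 0.951%, 0.837% and 1.03% in controls, and the highest double knockout share lay just under that of control replicate 2.

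The 5 enzymes of peroxisomal oxidation all had a negative fold change (median -0.76, with 4 negative under quantile normalization), and that of Acaa1b was the largest of all members. Acaa1b (ENSMUSG00000010651.4, chromosome 9, 119148023 to 119157093, minus strand, GRCm38), a thiolase of the last step, measured 204, 208 and 189 FPKM in double knockout livers, against 647, 635 and 785 FPKM in controls. The mean was 200.1 ± 10.1 FPKM in double knockout livers and 689 ± 83.6 FPKM in controls (SD, n = 3 each), a 3.44-fold lower level (log2 fold change -1.77 ± 0.16 SE, adjusted p = 0.0155 in limma). The double knockout values lay close together and far below the lowest control. Its fold change stayed between -1.83 and -1.68 when 1 library was left out, and the call was kept without control replicate 3 (adjusted p = 0.00773 in limma) and lost in each of the 5 fits that left out another one (adjusted p = 0.0616 to 0.129 in limma), as was that of the deleted Nr1h4.

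Acaa1a (chromosome 9, 119339676 to 119350299, plus strand), the other peroxisomal thiolase gene, starts 182.6 kb away on the same chromosome. Its values were 108, 95.7 and 133 FPKM in double knockout livers and 125, 129 and 217 FPKM in controls (log2 fold change -0.45 ± 0.25 SE, adjusted p = 0.438 in limma), with groups that overlap. Acaa1b made up 65.5%, 68.4% and 58.6% of the summed FPKM of the pair in double knockout livers, against 83.8%, 83.2% and 78.3% in controls. That share was higher in every control than in any double knockout library, and it was not tested. The pair is nearly identical: the coding sequences, each of 1275 bases in GENCODE M21 on GRCm38, align without gaps at 96.5% identity, with 44 mismatches. Of all stretches of 100 bases in the longest coding transcript of Acaa1b, 22.6% also occur in an Acaa1a transcript, and the sources used here do not say how reads from them were assigned, so that the level of each gene of the pair is uncertain. The 90 coding bases with the most mismatches, positions 460 to 549 counted from the first base of the start codon, are shown because reads over them tell the genes apart. Capitals mark the 13 bases that differ.
Acaa1b: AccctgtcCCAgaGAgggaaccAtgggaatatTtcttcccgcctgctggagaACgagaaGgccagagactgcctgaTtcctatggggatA
Acaa1a: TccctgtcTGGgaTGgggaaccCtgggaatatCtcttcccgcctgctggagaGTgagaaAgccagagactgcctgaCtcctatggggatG

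The promoters of the pair are shown because the measured levels and fold changes of these near copies were unlike in the same livers. The difference between their fold changes was not tested, nor was any link to the promoters. Each line gives the 250 bases before the RefSeq start (GRCm38.p6), with capitals on the CCAAT box, searched as CCAAT on both strands. Acaa1b is read from chr9:119157094-119157343 (minus strand) and Acaa1a from chr9:119341044-119341293 (plus strand). The Acaa1a window lies inside the GENCODE interval of the gene given above, so RefSeq and GENCODE place its start differently. For Acaa1b the starts of both sources are the same.
Acaa1b: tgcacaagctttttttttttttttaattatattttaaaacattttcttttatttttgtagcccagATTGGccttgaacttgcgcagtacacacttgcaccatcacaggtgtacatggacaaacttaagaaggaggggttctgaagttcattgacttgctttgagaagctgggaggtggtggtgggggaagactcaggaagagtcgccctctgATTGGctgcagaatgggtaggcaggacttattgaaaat
Acaa1a: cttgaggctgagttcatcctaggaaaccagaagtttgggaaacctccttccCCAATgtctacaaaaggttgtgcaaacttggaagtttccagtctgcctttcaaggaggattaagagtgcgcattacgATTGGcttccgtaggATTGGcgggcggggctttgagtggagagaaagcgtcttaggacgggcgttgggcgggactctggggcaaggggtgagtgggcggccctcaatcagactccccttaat
The box occurs 2 times before Acaa1b and 3 times before Acaa1a, and in 33.8% of all 32851 promoter windows of this length. PPARA with its partner RXR binds direct repeats of AGGTCA spaced by a base, and FXR with RXR inverted ones, which motif searches approximate. Searched on both strands, AGGNCANAGGNCA and AGGNCANTGNCCT were in 0 of the 32 members with a RefSeq promoter entry, and in 0.338% and 0.0852% of all windows. The core AGGTCA alone, which some matches of the longer motifs would contain, was in 4 members, Acadm, Acadvl, Cpt1a and Echs1, and in 14.0% of all windows. Decr1, Acat1, Acaa2, Crat and Abcd2 had no entry.

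The remaining peroxisomal enzymes were lower on average without passing the threshold. Ehhadh, the bifunctional hydratase and dehydrogenase before the thiolase step, measured 97.0, 149.6 and 86.4 FPKM in double knockout livers, against 195, 158 and 209 FPKM in controls (log2 fold change -0.78 ± 0.24 SE, adjusted p = 0.217 in limma). Ech1, a dienoyl-CoA isomerase, measured 241, 172 and 187 FPKM in double knockout livers, against 291, 332 and 390.2 FPKM in controls (log2 fold change -0.76 ± 0.20 SE, adjusted p = 0.182 in limma). Neither overlapped between the groups, although double knockout replicate 2 came close to the lowest control for Ehhadh. Decr2, the peroxisomal dienoyl-CoA reductase, was at 129, 114 and 144 FPKM in double knockout livers and 126, 133 and 196 FPKM in controls, with overlap (log2 fold change -0.21 ± 0.21 SE, adjusted p = 0.659 in limma).

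Peroxisomal carnitine acyltransferases, which export shortened chains, overlapped between the groups. Crot, the octanoyltransferase, differed widely within both groups, with 290.3, 363 and 241 FPKM in double knockout livers and 336, 222 and 543 FPKM in controls (log2 fold change -0.22 ± 0.33 SE, adjusted p = 0.777 in limma). Crat, the acetyltransferase, had a log2 fold change of -0.21 (SE 0.23). Of the membrane proteins, Pex11a (chromosome 7, 79735957 to 79743131, minus strand), which takes part in peroxisome proliferation, measured 60.3, 50.2 and 40.3 FPKM in double knockout livers, against 115, 107 and 70.3 FPKM in controls (log2 fold change -0.93 ± 0.24 SE, adjusted p = 0.177 in limma). The groups did not overlap, control replicate 3 was the lowest control, and without it Pex11a was past the threshold (-1.15, limma adjusted p = 0.0393), where 0.746% of all genes were called lower. Abcd3, the more abundant of the acyl-CoA transporters of the peroxisomal membrane, stood at 187, 192 and 222 FPKM in double knockout livers and 187, 143 and 264 FPKM in controls (log2 fold change 0.06 ± 0.24 SE, adjusted p = 0.929 in limma). Abcd2, the least abundant member, was lowest in control replicate 1, at 2.24, 1.93 and 3.51 FPKM in double knockout livers and 0.402, 2.03 and 3.51 FPKM in controls (log2 fold change 0.39 ± 0.41 SE, adjusted p = 0.685 in limma).

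**Figure D2:**
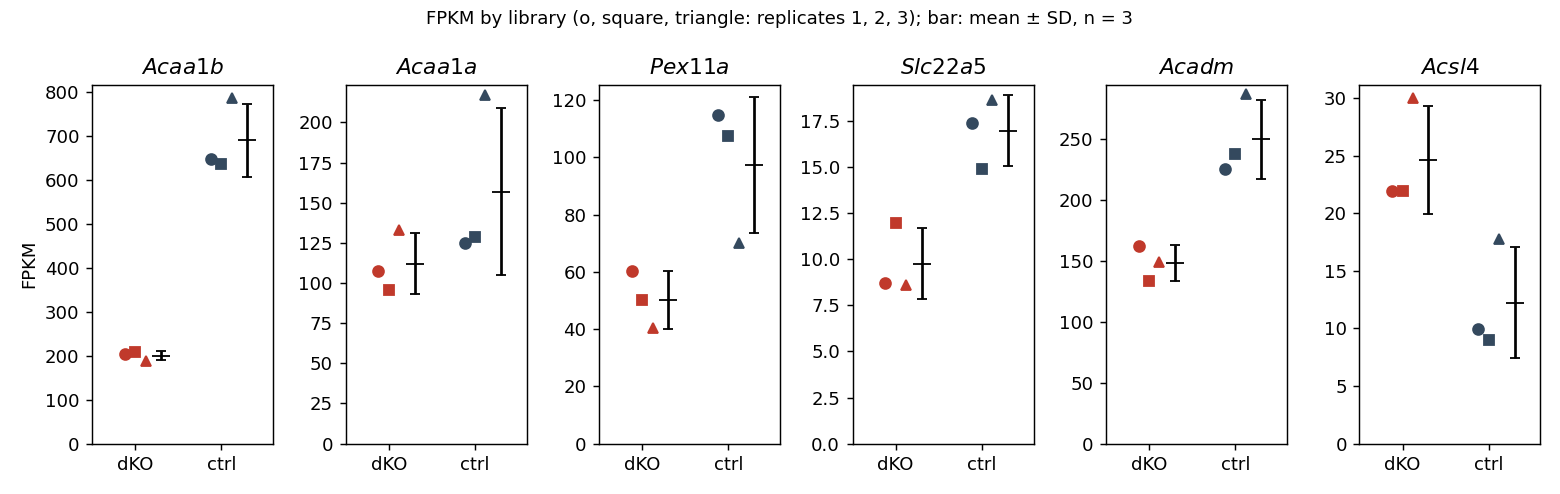
FPKM of 6 members in each library (linear axes from 0; dKO, double knockout, red; ctrl, control, dark), with the mean ± SD of n = 3 as a bar beside each group. Acaa1b, Pex11a, Slc22a5 and Acadm have all double knockout values below all control values, Acsl4 has them above, and Acaa1a overlaps.

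The acyl-CoA synthetases, which attach coenzyme A to the fatty acid, held the member with the largest positive fold change. Acsl4, the synthetase that prefers arachidonic acid, measured 21.9, 21.96 and 30.0 FPKM in double knockout livers, against 9.97, 8.96 and 17.8 FPKM in controls (log2 fold change 1.00 ± 0.26 SE, adjusted p = 0.184 in limma). The groups did not overlap, and without control replicate 3, the highest control, the gene was past the threshold (1.28, limma adjusted p = 0.0289), where 1.31% of all genes were called higher. Markers of macrophages were higher on average too: 7 of 7 had a positive fold change (median 0.77), 0 passed the threshold and none was at 0. Their summed level was 68.8, 152 and 53.2 FPKM in double knockout livers, against 49.9, 39.5 and 89.6 FPKM in controls, highest in double knockout replicate 2. Without that library 5 of the 7 markers had a positive fold change (median 0.26), and the log2 fold change of Acsl4 was 1.07. With all libraries, tested markers were also positive in 4 of 4 cases for cholangiocytes, 3 of 3 for neutrophils and 3 of 3 for adipocytes. For stellate cells it was 5 of 7, and for endothelial cells 3 of 6. The summed cholangiocyte level was 59.1 to 64.0 FPKM in double knockout livers, against 33.8 to 44.2 FPKM in controls. For neutrophils the sum was 1.90, 10.7 and 17.6 FPKM in double knockout livers, against 2.18, 1.00 and 47.7 FPKM in controls, highest in control replicate 3. Without double knockout replicate 2, 1 of 2 fitted neutrophil markers was positive. The adipocyte sum was 7.64, 15.6 and 5.35 FPKM in double knockout livers, against 1.63, 9.04 and 3.87 FPKM in controls, with overlap. The part of any cell type in the Acsl4 values was not tested. The main hepatocyte synthetase, Acsl1, stood at 393, 417 and 346 FPKM in double knockout livers and 469, 363 and 404 FPKM in controls, with groups that overlap (log2 fold change -0.09 ± 0.17 SE, adjusted p = 0.834 in limma). For Acsl5 and Acsl3 the log2 fold changes were 0.02 and -0.21, within their standard errors of 0.17 and 0.47.

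Genes of carnitine supply and of the shuttle into the mitochondrion had fold changes in both directions. Slc22a5 (chromosome 11, 53864542 to 53891660, minus strand, GRCm38), the plasma membrane carnitine transporter, measured 8.69, 12.0 and 8.59 FPKM in double knockout livers and 17.4, 14.9 and 18.6 FPKM in controls (log2 fold change -0.75 ± 0.18 SE, adjusted p = 0.152 in limma). The carnitine-acylcarnitine carrier Slc25a20 measured 85.1, 78.8 and 86.4 FPKM in double knockout livers, against 115, 121 and 169 FPKM in controls (log2 fold change -0.67 ± 0.18 SE, adjusted p = 0.190 in limma). Both were lower in every double knockout library than in any control, and neither passed the threshold. The reverse order was seen for Cpt1a, the outer membrane palmitoyltransferase that limits entry of long chains, at 151, 151 and 190.4 FPKM in double knockout livers and 122, 104 and 139.7 FPKM in controls (log2 fold change 0.43 ± 0.18 SE, adjusted p = 0.324 in limma). Its partner on the inner membrane, Cpt2, was lower in every double knockout library than in control replicates 1 and 2 but not than in replicate 3, which lay between double knockout replicates 1 and 2, at 77.6, 70.3 and 65.7 FPKM in double knockout livers and 108, 106 and 72.5 FPKM in controls (log2 fold change -0.40 ± 0.19 SE, adjusted p = 0.377 in limma).

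Acyl-CoA dehydrogenases open the cycle, each for a range of chain lengths. Acadm, the medium-chain enzyme, had the largest difference of the mitochondrial arm, with 162, 133 and 149 FPKM in double knockout livers, against 225, 238 and 287 FPKM in controls (log2 fold change -0.75 ± 0.17 SE, adjusted p = 0.141 in limma). The long-chain enzyme Acadl measured 116, 90.9 and 135 FPKM in double knockout livers, against 137, 154 and 183 FPKM in controls (log2 fold change -0.48 ± 0.20 SE, adjusted p = 0.324 in limma), and the highest double knockout value came close to the lowest control. Acadvl, the very-long-chain enzyme and the most abundant of the family, measured 193, 165 and 194 FPKM in double knockout livers, against 219.5, 227 and 236 FPKM in controls (log2 fold change -0.31 ± 0.15 SE, adjusted p = 0.377 in limma). These 3 genes did not overlap between the groups and did not pass the threshold. Acad11, of the same family, did not overlap either, but by a narrow margin (116, 116 and 114 FPKM in double knockout livers, 124, 118 and 117 FPKM in controls), and its log2 fold change of -0.05 was within its standard error of 0.13. The short-chain enzyme Acads (-0.31, SE 0.20) and Acad10 (0.11, SE 0.17) had groups that overlap.

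Of 8 genes of the later steps of the mitochondrial cycle, 6 had a negative fold change (5 with quantile normalization), and the subunits of the trifunctional protein had positive ones. Eci1, an isomerase that lets unsaturated chains through, measured 125, 97.3 and 117 FPKM in double knockout livers, against 165, 179.7 and 210.2 FPKM in controls (log2 fold change -0.71 ± 0.17 SE, adjusted p = 0.160 in limma). Decr1, the dienoyl-CoA reductase of the same branch, measured 66.7, 59.3 and 73.9 FPKM in double knockout livers, against 84.7, 78.4 and 133 FPKM in controls (log2 fold change -0.53 ± 0.22 SE, adjusted p = 0.331 in limma). The thiolase Acaa2 measured 547, 406 and 574 FPKM in double knockout livers, against 635, 710.5 and 760.2 FPKM in controls (log2 fold change -0.47 ± 0.20 SE, adjusted p = 0.325 in limma). In these 3 genes the groups did not overlap and the threshold was not passed. Hadha and Hadhb, which encode the subunits of the trifunctional protein from start sites 86 bases apart on opposite strands of chromosome 5, had log2 fold changes of 0.17 (SE 0.16) and 0.17 (SE 0.20), both above 0. The isomerase Eci2 (-0.34), the short-chain dehydrogenase Hadh (-0.29) and the hydratase Echs1 (-0.19) overlapped between the groups. Double knockout libraries reached 186 FPKM for Hadh and 197 FPKM for Echs1, against 287 FPKM for each in control replicate 3, the highest library.

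Electron transfer flavoproteins carry electrons from the dehydrogenases towards ubiquinone. Etfb, the β subunit, measured 349, 316 and 418 FPKM in double knockout livers, against 424, 547 and 712 FPKM in controls (log2 fold change -0.61 ± 0.23 SE, adjusted p = 0.294 in limma), without overlap. With the trend on transcript length and GC content removed, its log2 fold change was -0.31. Etfa, the α subunit (-0.23, SE 0.20), and Etfdh, the oxidoreductase of the inner membrane (0.04, SE 0.14), overlapped between the groups. Of the ketone body enzymes, the mitochondrial acetoacetyl-CoA thiolase Acat1 measured 137, 92.9 and 104 FPKM in double knockout livers, against 156, 162 and 176 FPKM in controls (log2 fold change -0.57 ± 0.18 SE, adjusted p = 0.234 in limma), without overlap. Bdh1, which interconverts acetoacetate and hydroxybutyrate, was at 132, 109.9 and 138 FPKM in double knockout livers and 95.3, 83.2 and 155 FPKM in controls (log2 fold change 0.23 ± 0.25 SE, adjusted p = 0.686 in limma), with groups that overlap.

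The peroxisomal and the mitochondrial arm had median changes close to each other. The median log2 fold change was -0.33 over the 10 peroxisomal and -0.31 over the 22 mitochondrial members, a difference of -0.03, smaller than its spread of 0.18 between libraries of a group (SD). It changed sign without control replicate 3 (0.03) or double knockout replicate 1 (0.02), and was -0.09 and -0.17 without control replicates 1 and 2, and -0.13 and -0.08 without double knockout replicates 2 and 3. Values did not overlap between the groups in 4 of 10 peroxisomal members, all lower, and in 11 of 22 mitochondrial members, 10 lower and 1 higher, where 11.6% of all tested genes were lower and 11.3% higher in that way. The peroxisomal arm held the wider range, from -1.77 to 0.39, where the mitochondrial arm ran from -0.75 to 0.43. Per library, as the median deviation from each gene's control mean, the peroxisomal arm stood at -0.48, -0.35 and -0.35 in double knockout livers, against -0.12, -0.20 and 0.41 in controls. The mitochondrial arm stood at -0.24, -0.51 and -0.20 in double knockout livers, against -0.15, -0.09 and 0.21 in controls. Both arms were highest in control replicate 3, and in both every double knockout library lay below every control. Without control replicate 3 the medians were -0.10 and -0.13, and with quantile normalization -0.14 and -0.087, for the peroxisomal and the mitochondrial arm. In the counts and medians Eci2 and Acad11 were taken as mitochondrial and Ech1 and Crat as peroxisomal, although their products are placed in both organelles. Without these genes the medians stayed at -0.33 (peroxisomal) and -0.31 (mitochondrial). No test was made on these summaries.

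**Figure D3:**
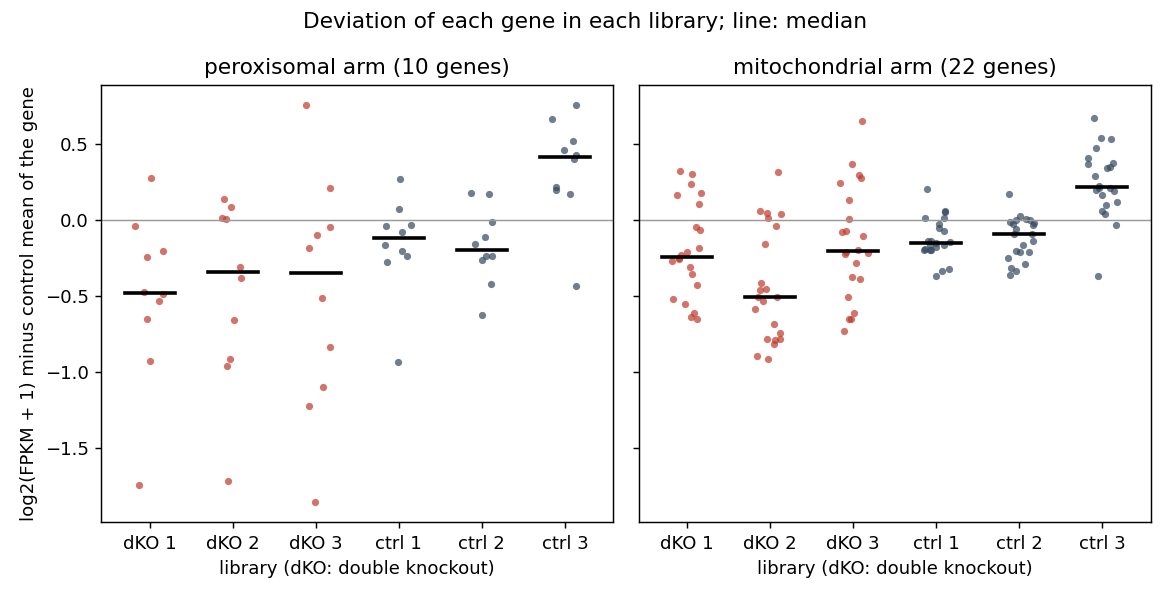
Deviation of each gene from its control mean, on the log2(FPKM + 1) scale, in each library, for the peroxisomal arm (left) and the mitochondrial arm (right). Points are genes, black lines are medians, red is double knockout (dKO) and dark is control (ctrl); control replicate 3 has the highest median in both arms, 0.41 and 0.21.

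**Figure D4:**
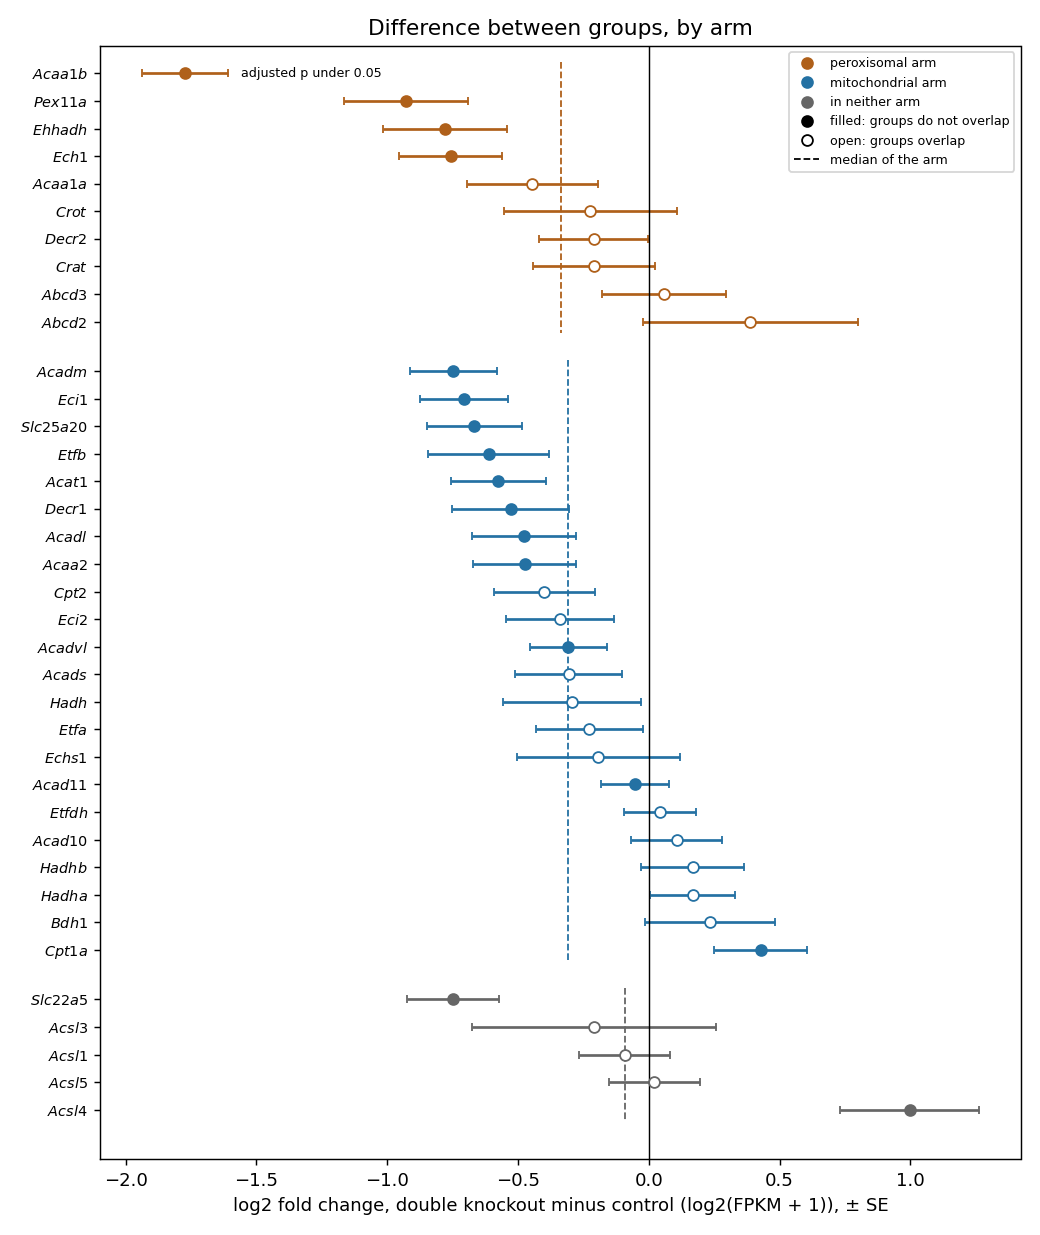
Log2 fold change (double knockout minus control) of each member with its standard error, by arm, filled where the groups do not overlap, with a dashed line at the median of each arm. Acaa1b alone carries an adjusted p under 0.05, and the medians of the arms lie at -0.33 (peroxisomal) and -0.31 (mitochondrial).

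Genes around the module gave a context for these values. Of 33 other genes of fatty acid oxidation, ketogenesis and uptake, 0 passed the threshold in limma, with 4 lower and 2 higher at an unadjusted p under 0.05, against 7.98% and 6.97% of all tested genes. They had 25 negative fold changes and a median of -0.18 (19 negative with quantile normalization). Fabp1, the liver fatty acid binding protein, was the most abundant, at 5004, 3814 and 5511 FPKM in double knockout livers and 9339.7, 9947 and 12974 FPKM in controls (log2 fold change -1.17 ± 0.28 SE, adjusted p = 0.157 in limma), without overlap. Scp2, which carries the peroxisomal thiolase for branched chains, was the second most abundant, at 1647 ± 162 FPKM in double knockout livers and 2107 ± 122 FPKM in controls (SD, n = 3 each, adjusted p = 0.423 in limma).

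Of 20 PPARA target genes outside β-oxidation, 4 fell in the double knockout and 0 rose past the threshold, beside 0.144% and 0.169% of all tested genes. Their fold changes were below 0 in 16 of 20 cases (15 with quantile normalization), with a median of -0.61. The ω-hydroxylase Cyp4a14 measured 84.1, 138 and 120.0 FPKM in double knockout livers, against 473, 583 and 523 FPKM in controls (log2 fold change -2.22 ± 0.22 SE, adjusted p = 0.0170 in limma). Retsat, a retinol saturase, measured 129.6, 128 and 116 FPKM in double knockout livers, against 323, 278 and 271 FPKM in controls (log2 fold change -1.22 ± 0.15 SE, adjusted p = 0.0339 in limma). The acyl-CoA thioesterase Acot1 measured 14.7, 11.5 and 6.25 FPKM in double knockout livers, against 67.8, 74.4 and 43.4 FPKM in controls (log2 fold change -2.45 ± 0.32 SE, adjusted p = 0.0358 in limma), and malic enzyme, Me1, 13.4, 14.9 and 24.6 FPKM in double knockout livers, against 54.9, 82.4 and 58.4 FPKM in controls (log2 fold change -1.85 ± 0.26 SE, adjusted p = 0.0490 in limma). No group overlapped in these genes, and each call was kept without control replicate 3 and lost without any 1 of the other libraries. The Cyp4a and Acot genes have close paralogs, so that shared reads make their values uncertain. Vnn1, a pantetheinase of the same list, had 61.1, 63.3 and 47.1 FPKM in double knockout livers and 29.1, 25.8 and 30.7 FPKM in controls (log2 fold change 0.97 ± 0.16 SE, adjusted p = 0.0807 in limma), and passed the threshold without control replicate 3. This list and the module were put together with earlier results of these data known, so their direction is not independent evidence.

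The tricarboxylic acid cycle, which takes up the acetyl-CoA, had 14 of 17 fold changes below 0 (10 with quantile normalization) and a median of -0.33, with 0 genes past the threshold in limma, and 6 lower and 0 higher at an unadjusted p under 0.05, against 7.98% and 6.97% of all tested genes. Its most abundant genes encode succinate dehydrogenase subunits, Sdhb at 189 ± 38.1 FPKM in double knockout livers and 253 ± 31.6 FPKM in controls, and Sdhd at 164 ± 38.9 FPKM in double knockout livers and 221 ± 78.8 FPKM in controls (SD, n = 3 each). With the trend on transcript length and GC content removed its median was -0.15, while the peroxisomal arm stood at -0.31 and the mitochondrial arm at -0.24. Hepatocyte markers were lower as well in 7 of 8 cases (5 with quantile normalization, median -0.36, 0 past the threshold). Among these, Apob (-0.0015) and Cps1 (-0.0084) hardly differed, and the groups overlapped in 6 of the 8 markers. Without double knockout replicate 2, 3 of 8 were above 0. The summed level was 31203 to 52813 FPKM in double knockout livers, against 59103 to 70699 FPKM in controls. Most of it was Alb, at 23233, 17009 and 34609 FPKM in double knockout livers, against 37008, 43645 and 42011 FPKM in controls. The part of the hepatocyte markers in the lower values of the module was not tested.

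The authors' deposited table, a Cuffdiff comparison of the same libraries, called 6 of the 37 members lower and 1 higher at q under 0.05, where it called 1.73% of its tested genes lower and 2.85% higher. In the authors' deposited table the lower ones were Acaa1b and Pex11a (q = 0.00121 and 0.00121), Slc22a5 (q = 0.00932), Acadm (q = 0.0368), and Eci1 and Ech1 (q = 0.039 and 0.039). The higher one in the authors' deposited table was Acsl4 (q = 0.00121). All 7 are members whose groups did not overlap here. The authors' deposited table also called genes whose groups overlapped. It called 10 of the 15 immediate-early genes lower, where limma called 0 of the 14 tested and the groups of all 14 overlapped. Of the 7 macrophage markers it called 3 higher, where limma called 0 and the groups of all 7 overlapped.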

How the data were processed

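Per the labels' protocols, total RNA from frozen livers (Qiagen kit, 1 µg) went into Illumina's stranded mRNA kit. Tools named in the submitters' processing notes are STAR 2.4.2a, Cuffdiff 2.2.1, Trimmomatic, Picard 1.119 and bcl2fastq 2.17.1.14, with the build GRCm38 (mm10). The annotation, and whether counting used strand, are not stated in the sources at hand. The authors deposited FPKM per library, and a comparison with group FPKM, p-value and q-value per gene. Columns were matched to samples by genotype word and number, and 0 other columns of values were present. FPKM was tested with limma 3.58.1 (R 4.3.3), with a mean-variance trend, on log2(FPKM + 1), with Benjamini-Hochberg adjustment over the 11810 genes whose mean was 0.5 FPKM or more. Log2 fold changes on this scale understate the change of low genes. With 3 against 3 an exact permutation test reaches no p under 0.1, so genes were tested only by limma's fit across all genes, which shares the estimate of the spread. The fit was tested on simulated data. The labels do not say which mouse each library came from, so p-values measure the spread between libraries. Depth was read from the worth of 1 fragment in genes over 1500 bases with 1 transcript. Positions are from GENCODE M21 and promoters from RefSeq. Alternatives were other pseudocounts, filters and scalings, each library left out, a replicate block, removal of a length and GC trend, and the authors' q-value. Arm medians were also taken without the members placed in both organelles. Members and lists were chosen with earlier results of these data known. Values per library are given for members past the threshold, members without overlap between groups, and the most abundant and most changed member of each role. Of the other lists the rule names the genes past the threshold or, with none, the 2 most abundant. Further genes given with values (Acaa1a, Decr2, Cpt2, Hadh, Echs1, Bdh1, Abcd2, Vnn1, Ppara, Pparg) were chosen after their values were seen.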

Additional observations from a re-analysis of the deposited data

How the results depend on the processing

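Of 11810 genes, 20 were called higher and 17 lower, and these totals moved to 0 and 2 without the filter on low values (19705 genes), to 154 and 88 without control replicate 3, and to between 2 and 6 in all without any other library. The members called lower numbered 0 without the filter, 0 to 2 with 1 library left out and 6 by the authors' q-value, and those called higher 0 to 1 with 1 library left out and 1 by the authors' q-value. Acaa1b kept its direction in every setting run and missed the threshold without the filter (adjusted p = 0.0654 in limma), as Cyp4a14, Retsat, Acot1, Me1 and Nr1h4 did. Me1 also missed it with a pseudocount of 0.1 and with the length and GC trend removed (adjusted p = 0.0524 and 0.0521 in limma), and Me1, Acot1 and Retsat with quantile normalization (0.0547, 0.0589 and 0.129). That normalization put the mitochondrial median at -0.087, and Acsl1 (0.17), Acad11 (0.17), Echs1 (0.081), Etfa (0.031), Decr2 (0.023) and Crot (0.071) above 0. Removing the trend on transcript length and GC content, chosen after seeing the data, put Acad10 at -0.015 and Etfa at 0.0014. Leaving out 1 library took the log2 fold change across 0 for Acsl1 (-0.18 to 0.0062), Acsl3 (-0.57 to 0.31), Acsl5 (-0.11 to 0.12), Echs1 (-0.36 to 0.14), Etfdh (-0.0047 to 0.070), Crot (-0.54 to 0.11), Crat (-0.34 to 0.0042), Abcd2 (-0.078 to 0.76), Abcd3 (-0.15 to 0.29) and Uox (-0.13 to 0.22). The arms' medians ran from -0.55 to -0.10 (peroxisomal) and from -0.38 to -0.13 (mitochondrial) then. The cause of these shifts was not tested. With the replicate number as a block, 27 genes were called higher and 23 lower, and Acaa1b (-1.77, adjusted p = 0.0201 in limma) remained the only member called. Deviations of libraries with the same number correlated at 0.22, -0.08 and 0.30, and double knockout replicate 1 went best with control replicate 2 (0.25), so the samples share only a number.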

Other observations

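Of 20 regulators of fatty acid oxidation, 0 passed the threshold in limma's test, with 1 lower and 1 higher at an unadjusted p under 0.05, against 7.98% and 6.97% of all tested genes, and 13 fold changes were above 0 (median 0.17, and 12 above 0 with quantile normalization). Ppara, the fatty acid receptor itself, measured 34.2, 41.3 and 46.8 FPKM in double knockout livers and 27.5, 24.1 and 47.0 FPKM in controls, with groups that overlap (log2 fold change 0.35 ± 0.26 SE, adjusted p = 0.550 in limma). Its partner Rxra measured 104, 108 and 128 FPKM in double knockout livers, against 87.7, 71.9 and 62.1 FPKM in controls, without overlap (log2 fold change 0.62 ± 0.18 SE, adjusted p = 0.200 in limma). Pparg, the receptor of fat storage, was low in all libraries, at 0.455, 0.979 and 1.02 FPKM in double knockout livers, against 5.39, 2.81 and 4.61 FPKM in controls, without overlap (log2 fold change -1.52 ± 0.24 SE, adjusted p = 0.0691 in limma). Hnf4a, the most abundant regulator, was at 130.4 ± 11.4 FPKM in double knockout livers and 158 ± 35.4 FPKM in controls (SD, n = 3 each).

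Of 24 genes of peroxisome biogenesis and other peroxisomal functions, 0 passed the threshold in limma's test, with 1 lower and 0 higher at an unadjusted p under 0.05, against the same shares. Their median log2 fold change was -0.08, with fold changes between -0.43 and 0.22. Cat, catalase, was the most abundant, at 1335 ± 207 FPKM in double knockout livers and 1452 ± 219.5 FPKM in controls, and Uox, urate oxidase, was at 992 ± 216 FPKM in double knockout livers and 979 ± 246 FPKM in controls (SD, n = 3 each). With quantile normalization 11 of the 24 were below 0, so the direction of this list depends on the scaling.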
